A study of Mus musculus with 4 samples.

Results

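The genes described here encode the proteins of the cytosolic ribosome. They were taken as the protein-coding rows of the deposited count table whose symbol is Rpl or Rps with a number and at most a short suffix, together with Rpsa, Rplp0, Rplp1 and Rplp2, and pseudogenes whose name carries -ps were left out. This gave 83 of 56748 genes, of which 79 had enough counts to be tested. HT22, a mouse hippocampal cell line, was used to make a line that overexpresses MEIS2, a TALE-type homeobox transcription factor, and a control line. Poly(A)-selected RNA of each line was sequenced in 2 libraries, and the comparison asks which transcripts differ with MEIS2. Both lines are HT22 without any other labelled treatment or allele. The labels do not give the vector, the promoter that drives MEIS2, or whether a line is 1 clone, and they do not say whether replicates are separate cultures. The p-values therefore cover only how far these 4 libraries differ, for technical reasons or others.

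A ribosome is built from a small subunit (40S), which reads the mRNA, and a large subunit (60S), which joins amino acids, and most of its proteins are present once per particle. Their genes are spread over the chromosomes and are among the most strongly expressed of any dividing cell. Most of their mRNAs begin with a cytosine followed by a run of pyrimidines, the terminal oligopyrimidine or TOP motif, through which mTOR signalling and the RNA-binding protein Larp1 set their translation and stability. The genome also holds many processed pseudogenes of these genes, which are near-identical to the spliced mRNA and can take reads from it.

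The sequence around the annotated start shows the TOP letters in many members, and 8 windows are given for members whose values are described further on. Each runs from 20 bases before the start to 20 after it, on the strand of the gene, from RefSeq on GRCm38.p6. Capitals mark a run of at least 7 C or T letters that starts on a C.
Rpl38 (chr11:114668560-114668599, plus strand): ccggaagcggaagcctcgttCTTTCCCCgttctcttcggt
Rpl18 (chr7:45718051-45718090, plus strand): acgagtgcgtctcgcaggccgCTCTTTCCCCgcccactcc
Rpl12 (chr2:32961692-32961731, plus strand): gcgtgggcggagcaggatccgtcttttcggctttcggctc
Rpl15 (chr14:18270967-18271006, minus strand): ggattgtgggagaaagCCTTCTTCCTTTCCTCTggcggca
Rpl7a (chr2:26910787-26910826, plus strand): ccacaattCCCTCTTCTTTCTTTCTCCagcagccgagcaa
Rplp2 (chr7:141447631-141447670, plus strand): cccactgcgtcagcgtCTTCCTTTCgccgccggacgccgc
Rps6 (chr4:86857348-86857387, minus strand): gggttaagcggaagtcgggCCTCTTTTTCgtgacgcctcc
Rps10 (chr17:27635225-27635264, minus strand): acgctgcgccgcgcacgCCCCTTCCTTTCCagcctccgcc
The run lies across or next to the start in 7 of these 8 windows, and the Rpl12 window has no run of 7. These 8 do not stand for all members, since the windows of Rplp0, Rpl41, Rps3 and Rpl11 also have no run of 7.

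A RefSeq window from 250 bases before to 50 after the start was held for 63 of the 83 members. A pyrimidine run of this kind, within 20 bases of the start and on the gene's strand, was present in 35 of the 63 (55.6%), against 21.7% of 17492 protein-coding genes with a window. The letters CCGGAAG, the core bound by ETS-family factors, were found on either strand of the 300-base window in 26 of the 63 (41.3%) against 12.9% of coding genes. TCTCGCG, searched in the same way, was found in 14 (22.2%) against 3.93%, and AAGATGGC, a form of the YY1 site, in 6 (9.52%) against 3.57%. The TATA box letters TATAAA were found in 7 members (11.1%), close to their 14.8% among coding genes. The reverse complement of CCGGAAG contains CTTCC and can overlap a pyrimidine run. A match is a description of letters and not of a bound site.

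Total counts lay between 15014017 and 16903967 per library. Meis2 had 245 and 319 counts in the control libraries against 5182 and 5571 in MEIS2 cells (log2 fold change 4.22, SE 0.34, adjusted p = 6.43e-05 by edgeR's quasi-likelihood test), as the labels give it. It was the sole gene of 12802 tested with an adjusted p under 0.05, a share of 0.00781%. Of 8 neuron markers, Rbfox3, Nefl, Nefm, Snap25 and Dcx were at 0 in all 4 libraries, and the summed level of the list was between 23.6 and 30.1 CPM (counts scaled to a library of 1e6, with TMM factors). The tested neuron markers went opposite ways. Tubb3 had overlapping groups (log2 fold change −0.40, SE 0.39), and Map2 was higher in both MEIS2 libraries than in both controls (0.93, SE 0.45). Their adjusted p-values were 0.680 and 0.498 by edgeR's test. None of 5 astrocyte or 5 oligodendrocyte markers and 1 of 5 microglia markers had enough counts to be tested. Of 5 fibroblast markers 3 were tested, with Lum at 0 throughout and summed levels of 390 and 357 CPM in control cells against 392 and 527 CPM in MEIS2 cells. Most of that sum was Col1a1 (log2 fold change 0.09, SE 0.31), while Col1a2 (0.69, SE 0.31) and Pdgfra (1.10, SE 0.40) were higher in both MEIS2 libraries than in both controls, with adjusted p = 0.475 and 0.314 by edgeR's test. The part of these markers in the values below was not tested.

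Ribosomal protein mRNAs made up a large share of all counts. The 83 genes held 7.55% of counts in control replicate 1, 6.50% in control replicate 2, 6.40% in MEIS2 replicate 1 and 4.53% in MEIS2 replicate 2. The means were 7.02% ± 0.740 in control cells against 5.46% ± 1.32 in the MEIS2 line (SD, n = 2), so the groups did not overlap, but control replicate 2 and MEIS2 replicate 1 were nearly level. The span from MEIS2 replicate 1 to MEIS2 replicate 2 was wider than that between the 2 libraries in the middle. In bulk RNA, less of these mRNAs per cell and more of other mRNAs cannot be told apart. Members took 24 of the 100 places at the top of the gene list by count, and the 10 leading members held between 33.1% and 35.8% of all member counts in each library.

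**Figure D1:**
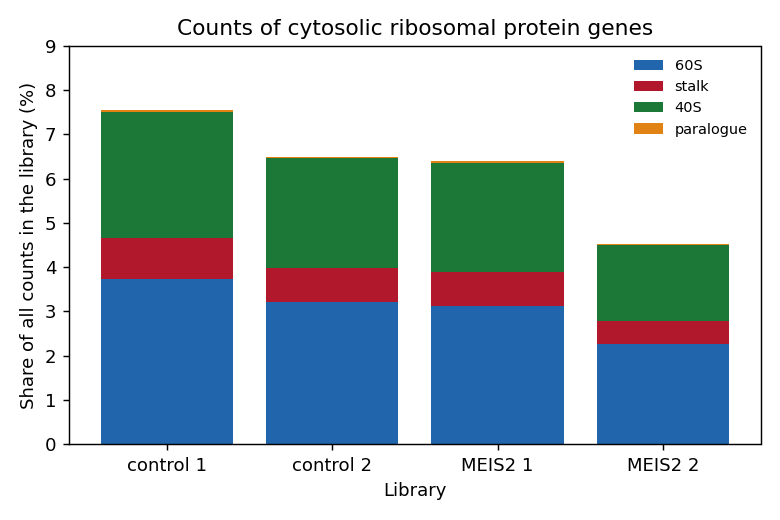
Share of all counts held by the ribosomal protein genes in each library, in percent, with 1 bar per library stacked by role and an axis from 0. The total is 7.55% and 6.50% in control cells against 6.40% and 4.53% in MEIS2 cells, and each role keeps about the same part of it.

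The large subunit with its stalk held 4.65% and 3.99% of counts in control cells against 3.90% and 2.78% in MEIS2 cells. The small subunit held 2.85% and 2.47% against 2.46% and 1.71%. The ratio of large to small was 1.63 and 1.62 in control cells against 1.58 and 1.62 in MEIS2 cells. This ratio of summed counts differed little between libraries, while the ratio of the median large to the median small subunit member in counts per length was 1.07 and 0.899 against 0.913 and 0.825. It was highest in control replicate 1 and lowest in MEIS2 replicate 2. The order of the members by level was also close to the same in all libraries, with Spearman correlations of CPM per kilobase between 0.972 and 0.993 for the 6 pairs of libraries over 79 genes. That is a description, since the members share their libraries and each level depends on the same length.

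No member passed the test between the lines. All 79 adjusted p-values lay between 0.256 and 0.891 in edgeR's quasi-likelihood test, where the share of all 12802 tested genes called lower was 0.0%. The fitted level was lower in the MEIS2 line for 78 of 79 members, while 49.1% of all tested genes had a lower fitted level. The median log2 fold change of the members was −0.47 (quartiles −0.55 and −0.41), beside 0.01 for all tested genes, and the median standard error of a member was 0.34. In 42 of 79 members both MEIS2 libraries lay under both controls, against 19.1% of all tested genes, and no member had the opposite arrangement, which 22.6% of all tested genes had. At an unadjusted p under 0.05, 1 member was lower, against 0.414% of all tested genes, and this was Rpl21. None was higher at that p, against 9.79%. DESeq2 called 74 of 8574 genes with an adjusted p (0.863%), and Rpl21 was the 1 member among them.

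**Figure D2:**
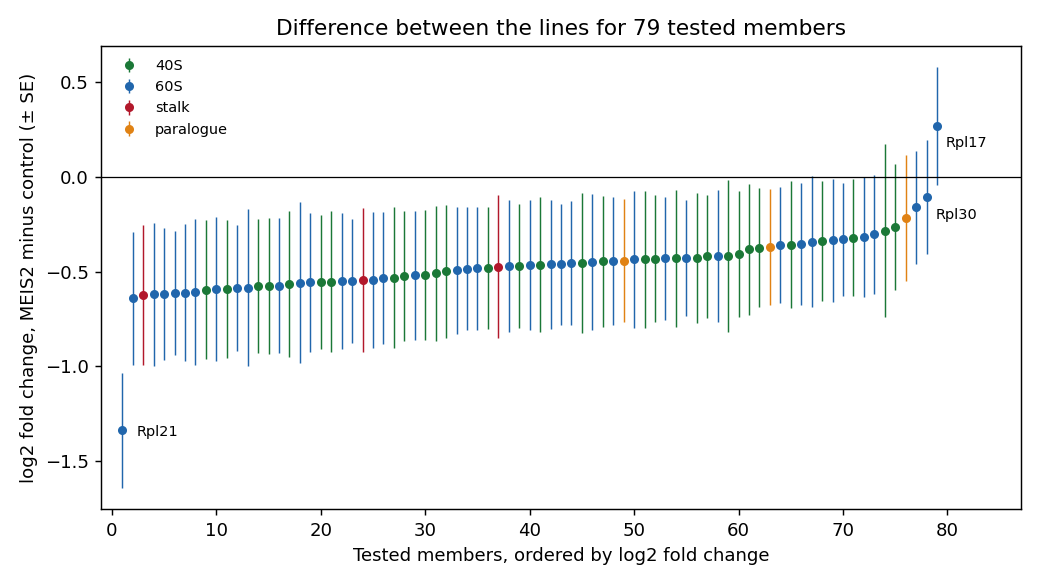
Log2 fold change of MEIS2 over control for each of 79 tested ribosomal protein genes, ordered by value and coloured by role, with bars of 1 standard error. The points lie close to the member median of −0.47, except Rpl21 at −1.34 and Rpl17, the sole member above 0, at 0.27.

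The members did not divide the libraries by line alone. In control replicate 2 the median member was 0.32 lower on the log2 scale than in control replicate 1, and 74 of 79 members were lower, against 42.1% of all tested genes. Between control replicate 2 and MEIS2 replicate 1, across the lines, the median difference was −0.03, and 46 of 79 members were lower in the MEIS2 library, against 50.2% of all tested genes. Within the MEIS2 line, 75 of 79 members were lower in replicate 2 than in replicate 1, against 49.3% of all tested genes, with a median difference of −0.66. The step inside the MEIS2 line was thus the largest of those 3. The step across the lines, taken between the 2 nearest libraries, was the smallest. The other pairs across the lines lay farther apart. The member median was −0.35 from control replicate 1 to MEIS2 replicate 1 and −0.67 from control replicate 2 to MEIS2 replicate 2. From control replicate 1 to MEIS2 replicate 2 it was −1.03. For these pairs the medians of all tested genes were 0.01, −0.04 and 0.11. The member median of −0.47 became −0.89 without MEIS2 replicate 1, and it was −0.25 without MEIS2 replicate 2 and −0.30 without control replicate 1. Without MEIS2 replicate 1, edgeR called 9 members, all lower, against 3.8% of 13395 genes tested that were called lower, while 1902 genes were called higher. The single MEIS2 library left is then assumed to vary like the controls.

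**Figure D3:**
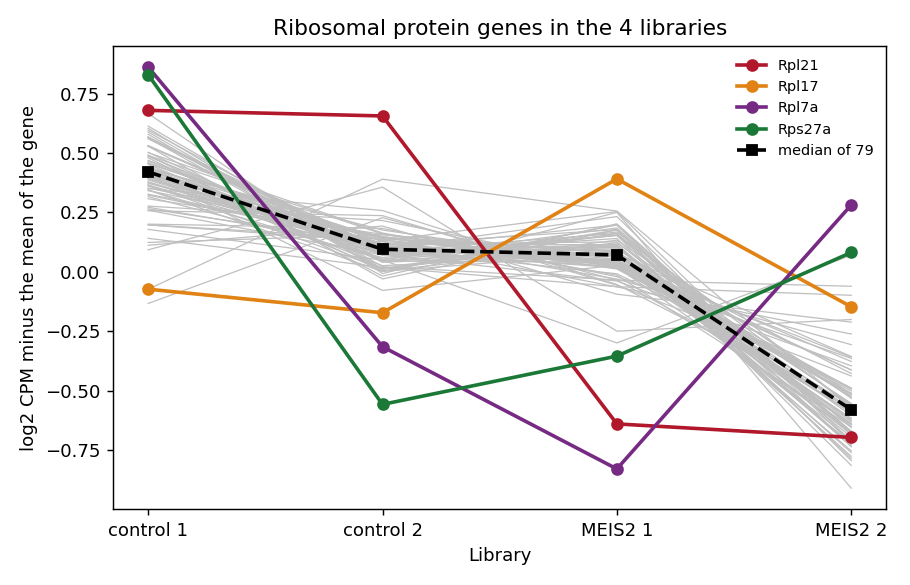
Deviation of each tested member from its own mean over the 4 libraries, log2 CPM, with 1 line per member, Rpl21, Rpl17, Rpl7a and Rps27a in colour and the member median dashed. Most lines pass from above 0 in control replicate 1, through values near 0 in control replicate 2 and MEIS2 replicate 1, to below 0 in MEIS2 replicate 2.

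Within a library the members kept close to one another. After the member median of each library was taken off, the range of a member over the 4 libraries had a median of 0.24 on the log2 scale. That range was above 1 in 5 members, namely Rpl7a (1.76), Rps27a (1.31), Rpl21 (1.27), Rpl30 (1.07) and Rpl22l1 (1.02). Rpl35, of the large subunit, followed the median most closely, with a range of 0.036. Such a range was not taken for other genes, so it is not shown to be narrower in the members. Their median level was 621 CPM, against 26.1 CPM for all tested genes.

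Among the large subunit proteins, the fitted level was lower for 41 of 42 tested members (median log2 fold change −0.48), against 49.1% of all tested genes. Groups did not overlap in 26 of the 42, all lower, against 19.1% of all tested genes. Rpl38, a small protein linked in mice to the translation of Hox mRNAs, measured 196.4 and 132.6 CPM in control cells against 127.5 and 87.5 CPM in MEIS2 cells. Its groups did not overlap, but control replicate 2 and MEIS2 replicate 1 were close (log2 fold change −0.61, SE 0.33, adjusted p = 0.559 by edgeR's quasi-likelihood test). The value was −0.31 when control replicate 1 was left out, −0.93 when MEIS2 replicate 1 was, and −0.13 after a trend with length and GC content was removed.

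Rpl18 measured 1814 and 1435 CPM in control cells against 1269 and 815 CPM in MEIS2 cells (log2 fold change −0.64, SE 0.35, adjusted p = 0.565 by edgeR's test). Rpl12, which sits at the base of the stalk, measured 1078 and 1011 CPM against 815 and 575 CPM (−0.59, SE 0.33, adjusted p = 0.576 by edgeR's test). Rpl15 measured 1272 and 1012 CPM against 919 and 569 CPM (−0.62, SE 0.35, adjusted p = 0.576 by edgeR's test). In these 3 members the MEIS2 libraries both lay under the controls, MEIS2 replicate 2 was the lowest, and removal of the length and GC trend left values of −0.62, −0.62 and −0.59.

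Rpl5 and Rpl11 form a particle with 5S rRNA that can bind Mdm2 and so stabilise p53. Rpl5 measured 862 and 912 CPM in control cells against 747 and 689 CPM in MEIS2 cells (887 ± 35.2 and 718 ± 41.4, SD, n = 2). Here the libraries of a line lay closer to each other than to the other line, and the log2 fold change was −0.30 (SE 0.32, adjusted p = 0.699 by edgeR's test). Rpl11 measured 638 and 519 CPM against 482 and 345 CPM, with a value of −0.49 (SE 0.32, adjusted p = 0.597 by edgeR's test).

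Rpl4, which lines part of the exit tunnel, was another member with replicates close together in the MEIS2 line, with 1258 and 1510 CPM in control cells against 992 and 1026 CPM in MEIS2 cells (log2 fold change −0.46, SE 0.33). Rpl13a, which also has a role outside the ribosome in the silencing of inflammatory mRNAs, had overlapping groups, with 127.8 and 104.0 CPM against 114.4 and 59.0 CPM (−0.42, SE 0.35). Rpl30 measured 136.0 and 174.7 CPM against 145.5 and 143.0 CPM. Its log2 fold change of −0.11 (SE 0.30) was the smallest in size, with a value of 0.08 without control replicate 2.

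The 3 acidic stalk proteins, Rplp0, Rplp1 and Rplp2, form the flexible arm that recruits elongation factors. Rplp0 measured 6935 and 5416 CPM in control cells against 5242 and 3226 CPM in MEIS2 cells (log2 fold change −0.54, SE 0.38, adjusted p = 0.604 by edgeR's test), with no overlap. Rplp1 measured 2191 and 1724 CPM against 1849 and 969 CPM (−0.47, SE 0.38), and Rplp2 measured 1005 and 698 CPM against 717 and 388 CPM (−0.62, SE 0.37). In both of these MEIS2 replicate 1 lay above control replicate 2, so the groups overlapped. After removal of the length and GC trend, the values were −0.35 for Rplp0, −0.08 for Rplp1 and −0.37 for Rplp2.

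All 31 small subunit members were tested, and the fitted level was lower for all 31 (median log2 fold change −0.45), against 49.1% of all tested genes. Groups did not overlap in 14 of them, all lower, against 19.1% of all tested genes. Rps6, the target of S6 kinase downstream of mTOR, measured 1590 and 1272 CPM in control cells against 1204 and 743 CPM in MEIS2 cells (−0.56, SE 0.35, adjusted p = 0.596 by edgeR's test). Its nearest libraries, control replicate 2 and MEIS2 replicate 1, were closer than the controls were to each other, and its value was −0.17 with the length and GC trend removed. Rps3, which lines the mRNA entry and also acts in DNA repair, measured 1796 and 1505 CPM against 1440 and 878 CPM (−0.51, SE 0.35). Rps19, the protein most often mutated in Diamond-Blackfan anaemia in humans, measured 834 and 613 CPM against 625 and 347 CPM (−0.57, SE 0.36), and its groups overlapped.

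Per kilobase, the levels of the tested members ran from 2.48 CPM for Rps10 to 3373 CPM for Rplp1 as the mean of the lines, with a median of 313.4 CPM against 5.63 CPM for all tested genes. After Rplp1 came Rplp0 (3137 CPM per kilobase), Rpl41 (1760), Rps15 (1714) and Rpl19 (1597). Rpl41, the smallest ribosomal protein, measured 3033 and 1901 CPM in control cells against 2273 and 1017 CPM in MEIS2 cells. Its replicates differed more than the lines did (log2 fold change −0.58, SE 0.42). The lowest after Rps10 were Rpl22l1 (21.8 CPM per kilobase), Rpl21 (22.6), Rpl34 (38.8) and Rpl35a (41.9). All of these 5 but Rpl22l1 have near-identical copies elsewhere in the genome that hold 20.4% or more of the counts of gene and copies.

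Near-identical copies were looked for among all transcripts, requiring 90% identity along 150 bases and 50% of the length of the copy. This gave 952 copies of 69 members, of which 374 had counts, and the median member held all but 2.57% of the counts of gene and copies. The copies held over 10% in 24 tested members and over 50% in Rpl21, Rpl34, Rps10 and Rpl17. Which of the counts on a copy are transcripts of the copy cannot be told apart from reads of the parent gene in these counts. When each gene was summed with its copies, all 79 members had a lower fitted level (median −0.48), over a range from −0.71 to −0.11, and no member passed the test.

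**Figure D4:**
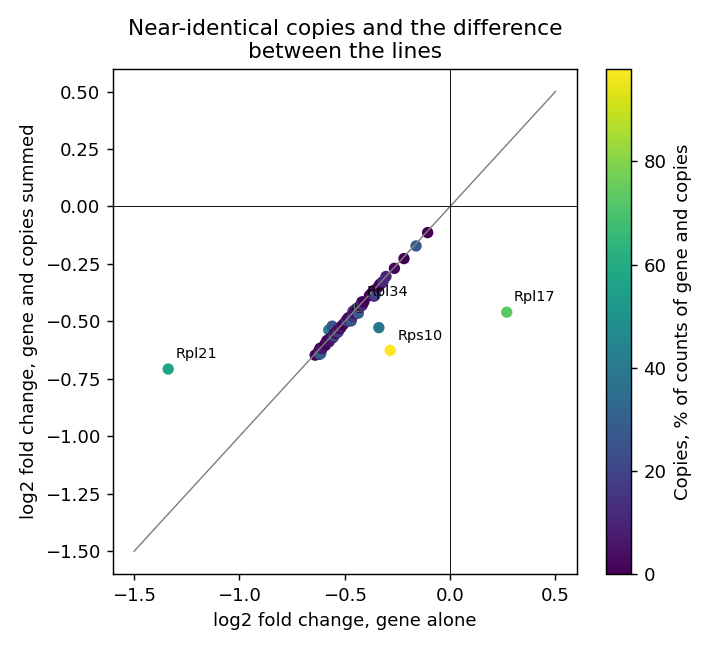
Log2 fold change of MEIS2 over control for each member alone (x axis) and for the member summed with its near-identical copies (y axis), coloured by the share of counts on copies in percent. Most points lie on the line of equal values, and the 4 members farthest from it are Rpl21, Rpl17, Rps10 and Rps29.

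Rpl21, a large subunit protein on chromosome 5 (146769700 to 146773842 in the table, which names no build), stood apart from the other members. It had 1708 and 1779 counts in control cells against 695 and 718 in MEIS2 cells, or 111.2, 109.4, 44.5 and 42.8 CPM. The replicates of each line were nearly level and the lines were far apart, at 110.3 ± 1.27 and 43.6 ± 1.22 CPM (SD, n = 2). The log2 fold change was −1.34 (SE 0.31, adjusted p = 0.256 by edgeR's test), and between −1.34 and −1.38 when any 1 library was left out. DESeq2 gave −1.40 (SE 0.32) with an adjusted p of 0.0151.

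The 83 copies of Rpl21, 40 of them with counts, differed less between the lines than the gene itself. They held 57.4% of the counts of gene and copies, with 1827 and 1739 counts in control cells against 1593 and 1436 in MEIS2 cells. Gene and copies together gave a log2 fold change of −0.71. The copy with the most counts, Rpl21-ps15, had 1381 and 1292 counts against 1145 and 974 (−0.37, SE 0.31).

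Rpl17 was the 1 member with a higher fitted level in the MEIS2 line. It measured 139.6 and 130.3 CPM in control cells against 192.5 and 132.6 CPM in MEIS2 cells, so that MEIS2 replicate 1 alone was high and the groups overlapped (log2 fold change 0.27, SE 0.31, adjusted p = 0.729 by edgeR's test). Without MEIS2 replicate 1 the value was −0.04. Its 58 copies held 73.0% of the counts of gene and copies, with 7860 and 7997 counts in control cells against 5140 and 4632 in MEIS2 cells. Those 4 values follow the lines closely, unlike the gene itself. The leading copy, Rpl17-ps10, had 4352 and 4367 counts against 2440 and 2369 (−0.89, SE 0.30, adjusted p = 0.295 by edgeR's test), and gene and copies together gave −0.46.

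Rps10, which lies on the head of the small subunit, had 81 and 119 counts in control cells against 104 and 62 in MEIS2 cells, far fewer than any other tested member. Its copies held 98.0% of gene and copies, nearly all on Rps10-ps2 with 5859 and 4274 counts against 4252 and 2479. For the gene alone the log2 fold change was −0.28 (SE 0.46), and 0.04 without MEIS2 replicate 2. With its copies it was −0.63 (SE 0.36). Rpl24 was in the same position, with 6 and 10 counts in control cells against 4 and 9 in MEIS2 cells, too few to be tested. Its copies held 96.9% of gene and copies, at 293 and 229 counts against 246 and 143, and gave −0.45 (SE 0.41) together with the gene. Rpl34 had 73.0% on copies, but its value alone (−0.43) and with copies (−0.43) were level. Rps29 was at −0.34 alone and at −0.53 (SE 0.33) with its copies.

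Rpl7a and Rps27a had controls that differed more than the lines. Rpl7a, on chromosome 2 (26800776 to 26803330 in the table), had 565.9 and 250.2 CPM in control cells against 175.2 and 378.4 CPM in MEIS2 cells. Its log2 fold change of −0.56 (SE 0.42, adjusted p = 0.615 by edgeR's test) became 0.13 without control replicate 1 and −1.28 without MEIS2 replicate 2. Rps27a, which is made as a fusion with ubiquitin, had 440.4 and 168.3 CPM against 193.7 and 262.2 CPM. Its value of −0.42 (SE 0.40, adjusted p = 0.680 by edgeR's test) became 0.43 without control replicate 1. In both genes control replicate 1 was the highest library, as for most members, but MEIS2 replicate 2 lay above control replicate 2 and MEIS2 replicate 1. The copies of Rpl7a held 25.3% of gene and copies, with 1898 and 2266 counts in control cells against 2005 and 1252 in MEIS2 cells. Those of Rps27a held 12.7%, at 628 and 793 counts against 630 and 421. Both sums were lowest in MEIS2 replicate 2, unlike the genes themselves. The part of read assignment in these profiles was not tested.

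Several ribosomal proteins have a paralogue that can take their place in the particle, often in 1 tissue. Rpl3l, the form of heart and skeletal muscle, had 3 counts in MEIS2 replicate 1 and 0 in the others, while Rpl3 measured 1646 and 1484 CPM in control cells against 1352 and 948 CPM in MEIS2 cells. Rpl10l and Rpl39l, the forms of male germ cells, were at 0 in all 4 libraries, under a floor of 3 counts that is worth between 0.179 and 0.195 CPM and covers counting error only. Their parents Rpl10 and Rpl39 measured between 1144 and 2414 CPM and between 233 and 431 CPM. These 2 forms were therefore not detectable at this depth in either line, and Rpl3l reached the floor in MEIS2 replicate 1 alone.

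The paralogues with broad expression were present beside their parents. Rpl22l1 measured 48.6 and 44.5 CPM in control cells against 34.9 and 45.1 CPM in MEIS2 cells, with overlapping groups (−0.22, SE 0.33), and Rpl22 measured 238.6 and 228.9 CPM against 203.7 and 168.2 CPM (−0.33, SE 0.30). In CPM per kilobase Rpl22l1 stood at 23.4 in control cells against 20.1 in the MEIS2 line, under Rpl22 at 80.3 and 63.9. Rps27l, known as a p53 target, measured 186.5 and 153.5 CPM against 154.2 and 95.9 CPM (−0.44, SE 0.32), and Rps27 measured 190.7 and 166.6 CPM against 181.3 and 92.7 CPM (−0.38, SE 0.35). Per kilobase this pair was close to level, at 208 CPM for Rps27l and 171 CPM for Rps27 in control cells against 153 and 131 CPM in the MEIS2 line. Rpl7l1 measured 225.9 and 204.1 CPM against 191.6 and 141.1 CPM (−0.37, SE 0.31), beside −0.34 (SE 0.35) for Rpl7. Parent and paralogue thus had values within 1 SE of each other in all 3 of these pairs, and the difference within a pair was not tested.

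Across the 79 tested members, the log2 fold change was more negative for members of higher level and higher GC content. Spearman's rho was −0.52 with CPM per kilobase, −0.45 with GC content and 0.02 with length. The same signs appeared between replicates of the MEIS2 line, with −0.40 for level per kilobase and −0.35 for GC content in replicate 2 minus replicate 1, and between the controls, with −0.29 and −0.28. From control replicate 2 to MEIS2 replicate 1, across the lines, they were 0.11 and 0.07, with −0.31 for length. These are descriptions over genes that share their libraries. Members have a median length of 1830 bases against 4219 for all tested genes, and a median GC content of 50.9% against 49.7%. A trend of the log2 deviations on length and GC content was also fitted in each library over all tested genes and removed. The member median was then −0.36 beside −0.06 for all tested genes, and 77 of 79 members were below 0. The others were Rps10 at 0.01 and Rpl17 at 0.34. Scaling by library size alone moved the median of all genes from 0.01 to 0.17 and that of the members to −0.32, so the members stood 0.49 under all genes in place of 0.48. Under that scaling Rpl30 stood at 0.04 and Rpl17 at 0.41.

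Members with and without each set of letters had a median below 0. The 34 tested members with a pyrimidine run had a median log2 fold change of −0.45, and the 25 without one in the window had −0.47. The 25 tested members with CCGGAAG and the 34 without it both had a median of −0.46. With TCTCGCG the median was −0.52 over 14 members and without it −0.45, with AAGATGGC it was −0.38 over 6 and without it −0.47, and with TATAAA it was −0.41 over 7 and without it −0.47. These differences were not tested.

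The lists of other genes of ribosome production did not all lean the same way, and none held a gene that edgeR called. DESeq2 called 1 gene of these lists, an assembly factor, beside 0.863% of the 8574 genes to which it gave an adjusted p. Among ribosomal proteins outside the naming rule, Fau, a small subunit protein made as a ubiquitin-like fusion, had a log2 fold change of −0.55 (SE 0.35), and Rack1, a scaffold on the small subunit, had −0.49 (SE 0.37). Of 14 translation factors with TOP mRNAs, 12 had a lower fitted level (median −0.43), against 49.1% of all tested genes. Groups did not overlap in 8 lower and 1 higher, against 19.1% and 22.6% of all tested genes. Eif3f, a subunit of the initiation factor eIF3, had −0.67 (SE 0.37) and the elongation factor gene Eef1b2 −0.57 (SE 0.32). The others were Hnrnpa1, a splicing factor, at 0.20 (SE 0.32), and Pabpc1, the cytoplasmic poly(A)-binding protein, whose mRNA also carries the TOP motif, with 644 and 902 CPM in control cells against 934 and 1486 CPM in MEIS2 cells (0.65, SE 0.35).

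**Figure D5:**
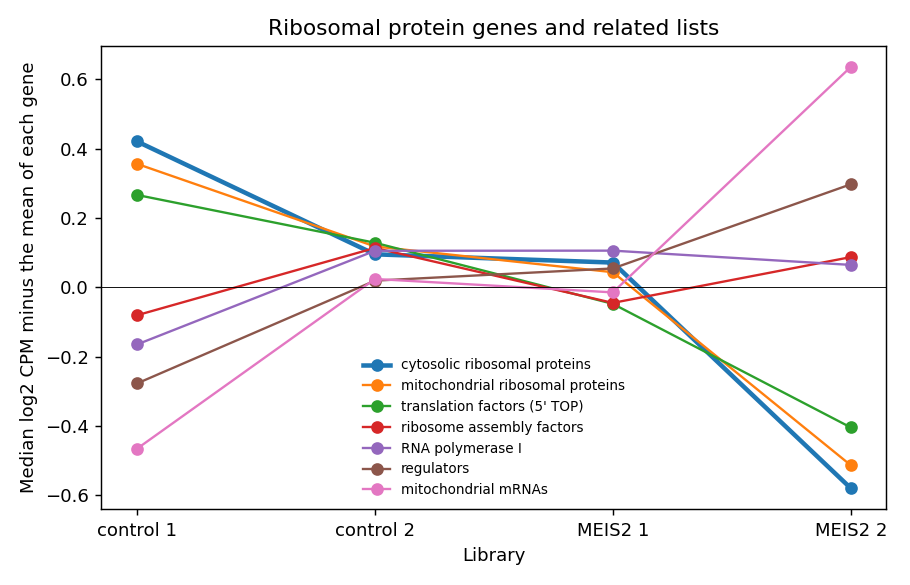
Median over the tested genes of each list of log2 CPM minus the gene's own mean (y axis) in each library (x axis), with 1 line per list. Cytosolic ribosomal proteins run from 0.42 in control replicate 1 to −0.58 in MEIS2 replicate 2, the mitochondrial ribosomal proteins run beside them, and mRNAs of the mitochondrial genome run from −0.47 to 0.64.

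The 77 tested mitochondrial ribosomal protein genes, which encode the separate ribosome of that organelle, lay close to the cytosolic ones, and the difference between the sets was not tested. Their median was −0.46, with 74 of 77 at a lower fitted level, against 49.1% of all tested genes. Groups did not overlap in 46 of them, all lower, while 19.1% of all tested genes had that arrangement and 22.6% the opposite. The lowest p-values were those of Mrpl4 (−0.70, SE 0.34) and Mrpl58 (−0.69, SE 0.34). Both sets also had like library medians, at 0.36, 0.12, 0.04 and −0.51 for the mitochondrial and 0.42, 0.10, 0.07 and −0.58 for the cytosolic set, as log2 deviations, with the libraries in the order control replicate 1, control replicate 2, MEIS2 replicate 1, MEIS2 replicate 2. mRNAs of the mitochondrial genome, listed as a view of RNA quality, ran the other way, with a median of 0.63 over 12 tested genes. They held 0.655% and 0.909% of counts in control cells against 0.918% and 1.27% in MEIS2 cells, in the reverse order of the members' share, and their part in the result was not tested.

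For the genes that make ribosomes the median depended on the setting. Of 34 assembly factors, 20 had a lower and 14 a higher fitted level, with a median of −0.10 that was −0.21 with the length and GC trend removed. Bop1, of the large subunit processing complex, had −0.66 (SE 0.37), and Mdn1, the giant AAA ATPase that strips factors from the large subunit, had 15.4 and 18.8 CPM in control cells against 36.4 and 92.8 CPM in MEIS2 cells (1.92, SE 0.43, adjusted p = 0.256 by edgeR's test). Rrs1, another assembly factor, had 0.81 (SE 0.34, adjusted p = 0.415 by edgeR's test). Without MEIS2 replicate 2 Mdn1 stood at 1.05, and with the trend removed at 0.85. RNA polymerase I and its factors, which transcribe ribosomal RNA, divided evenly, with 7 of 14 lower and a median of −0.07 that was −0.31 with the trend removed, where the members stood at −0.36 and all tested genes at −0.06. The difference between these lists and the members was not tested. The list ran from −0.59 (SE 0.38) for Taf1c to 0.79 (SE 0.45) for Taf1a.

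Of the regulators, 9 of 14 had a higher fitted level, with a median of 0.17 that was −0.15 with the length and GC trend removed. Larp1, which binds the TOP motif and the cap next to it, had 155.7 and 226.6 CPM in control cells against 311.6 and 433.6 CPM in MEIS2 cells. Its groups did not overlap (log2 fold change 0.96, SE 0.33, adjusted p = 0.297 by edgeR's test), and its value lay between 0.67 and 1.25 when any 1 library was left out. Larp1 was lowest in control replicate 1, where the members were highest, and highest in MEIS2 replicate 2, where the members were lowest. The same held for Mtor, for Pabpc1 and for the share of mRNAs of the mitochondrial genome. It also held for genes of other lists, among them Mdn1, Rrs1, Col1a2 and Pdgfra. The share of all tested genes with this order was not counted, so it is not shown to be particular to the genes named. A link between any of these and the members was not tested. Myc, a transcriptional activator of ribosomal protein genes, had 72.1 and 71.1 CPM against 104.1 and 129.2 CPM (0.70, SE 0.30, adjusted p = 0.425 by edgeR's test), and Mtor had a value of 0.51 (SE 0.31). Larp4, another La-related RNA-binding protein, had 1.17 (SE 0.48) but −0.04 without MEIS2 replicate 2. On the lower side, Eif4ebp1, the translation repressor that mTOR phosphorylates, had −0.45 (SE 0.33), and Akt1s1, an inhibitory subunit of mTOR complex 1, had −0.47 (SE 0.35).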

How the data were processed

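RNA-seq of 4 libraries was used, 2 per line. Per the labels' protocols, RNA was taken up in TRIzol, poly(A) RNA was selected on oligo(dT) beads and libraries followed a New England Biolabs protocol; the selection makes coverage of long transcripts depend on RNA integrity. The authors deposited raw read counts as integers, with gene lengths, in a table that has a column for each library. The submitters' processing notes name DESeq2 but no version of it. How reads were aligned and counted, on which build and annotation, and what was done with strand and with reads that match several genes, is not stated in the labels or headers.

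Genes were kept by edgeR's filterByExpr (12802 of 56748), scaled by TMM and tested with edgeR 4.0.16's quasi-likelihood test in R 4.3.3, MEIS2 minus control without a replicate block, with Benjamini-Hochberg adjustment over all tested genes and a threshold of 0.05. The biological coefficient of variation was 27.9%. Library deviations are from the gene's mean log2 CPM with a prior count of 2. CPM per kilobase uses the deposited gene length. GC content came from the longest GENCODE M21 transcript (98.9% of tested genes). Copies were found with BLAST+ 2.17.0. Alternatives used DESeq2 1.42.0, limma 3.58.1 and other filters, scalings and left-out libraries. The fit was run on simulated data with known changes, to check the fold changes it returns. Recovery of the changed genes was required only at a simulated spread far smaller than that of these libraries. Same-numbered libraries share only a number in the labels.

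Members and lists were chosen with earlier results of these data known. The genes named are those with the lowest p in each direction, the highest and lowest levels per kilobase, the widest differences between replicates, the stalk, the paralogue pairs, members of known role and those not tested; of other lists, those with the lowest p. Rpl35, Rps29, Rpl30, Myc and Mtor, and the copies named, were added after their values were seen. The list of ribosomal proteins outside the naming rule is not reported here as a whole.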

Additional observations from a re-analysis of the deposited data

How the results depend on the processing

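The direction of the member median held in every setting run, and the share of counts moved by less than the spread between replicates. The count of members with an adjusted p under 0.05, 0 in edgeR's quasi-likelihood test, was 1 with DESeq2, 1 with no filter on low counts, and between 0 and 9 when 1 library was left out. The count over all genes, 1 in the main setting, was 74 with DESeq2, 271 with no filter, 0 with the length and GC trend removed, and between 1 and 2411 when 1 library was left out. The member median lay between −0.89 and −0.25 over the left-out libraries. With the replicate number as a block, edgeR called 23 members, all lower, among 2797 genes, of which 1884 were higher and 913 lower (7.13% of all tested). Same-numbered libraries deviated together (r = 0.529 over 12802 genes). With 2 pairs and no label of a shared batch, whether the numbers pair the samples cannot be told. Rpl17 turned to −0.46 with its near-identical copies, a setting chosen after seeing the data, to −0.46 with pseudogenes of its name, and ran from −0.042 to 0.47 over the left-out libraries. Rps10 turned to 0.0054 with the trend removed and ran from −0.78 to 0.044 over the left-out libraries. Over the left-out libraries Rps27a ran from −0.96 to 0.43 and Rpl7a from −1.28 to 0.13. The median of the regulators turned to −0.15 with the trend removed, −0.10 without MEIS2 replicate 2 and −0.03 without control replicate 1. That of the assembly factors turned to 0.058 with library size alone, stood at −0.21 with the trend removed and ran from −0.21 to 0.014 over the left-out libraries. That of RNA polymerase I turned to 0.081 with library size alone, stood at −0.31 with the trend removed and ran from −0.13 to 0.19 over the left-out libraries. The cause was not tested. Rpl24, Rpl3l, Rpl10l and Rpl39l had too few counts at this depth to be tested.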

Other observations

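The arrangement of Rpl7a and Rps27a, with control replicate 2 and MEIS2 replicate 1 both under both other libraries, was shared by 1 further member, Rpl22l1, and by 439 of 12802 tested genes.

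Of the near-identical copies of the members, 159 passed the filter on low counts as genes of their own. Their median log2 fold change was −0.47, and 141 of 159 had a lower fitted level, against 49.1% of all tested genes. Groups did not overlap in 81 lower and 6 higher, against 19.1% and 22.6% of all tested genes. None was called by edgeR at an adjusted p under 0.05, against 1 of 12802 tested genes. At an unadjusted p under 0.05 in edgeR's test there were 7 of 159, against 1306 of 12802 tested genes. Of those 1306, 1253 were higher (9.79% of all tested genes) and 53 lower (0.414%). Among the copies with the most counts, those under that p were Rpl17-ps10, Rpl10-ps3, Gm6311 and Gm14303, all lower. The 7 as a whole were not split by direction. The leading copy of Rps29, Gm14303, had 1460 and 1415 counts in control cells against 1107 and 539 in MEIS2 cells (−0.82, SE 0.37). The copies and the members share reads to an extent that these counts do not show.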
